A study of Homo sapiens with 9 samples.

Results

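The 40 genes described here encode the enzymes and transporters that carry glucose to lactate and the best known parts of the transcriptional response to low oxygen. They were taken from a list of symbols, found in the authors' deposited table and followed through the count files by Ensembl identifier. All 40 were found, out of 64253 gene identifiers, and all 40 passed the filter on low counts. IMR90 is a line of human fetal lung fibroblasts with a limited lifespan in culture. The study compared 3 groups of IMR90 cells, with 3 libraries each. The control cells carried lentiviral vector without a gene-specific hairpin (an empty vector in the sample labels, a GFP vector in the treatment protocol). The shRRM2 cells received a hairpin against RRM2, the regulated subunit of ribonucleotide reductase, and then vector, and the labels name this group senescence. The shRRM2/shp16 cells received the same RRM2 hairpin and then a hairpin against p16, the inhibitor of cell cycle kinases encoded by CDKN2A, and the labels name this group senescence-bypass. All groups shared 2% oxygen, 4.5 g/L glucose, 10% serum, pyruvate in the medium, population doubling 30, a second infection after 24 hours and 7 days in puromycin at 3 ug/mL. No group grown in room air and no group with the p16 hairpin alone was analysed here, 1 hairpin was used per gene, and the labels do not say whether the 3 libraries of a group came from separate cultures. P-values therefore measure the spread between these libraries, which may be technical.

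Glycolysis splits glucose into pyruvate, and lactate dehydrogenase turns pyruvate into lactate, which leaves the cell through monocarboxylate transporters. In low oxygen the prolyl hydroxylases EGLN1 and EGLN3 no longer mark the HIF alpha subunits for destruction. HIF1A and EPAS1 then pair with ARNT and bind short DNA elements with the core ACGTG or GCGTG near genes for glycolysis, blood vessel growth, pH control and collagen modification. HIF alpha subunits are controlled mainly as proteins, which RNA counts do not measure. In bulk RNA, fewer cells expressing a gene and less of its RNA per cell cannot be told apart.

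The gene rows of the 9 libraries summed to 15770895 to 24873291 counts. RRM2 was at 485 ± 5 CPM (counts scaled to library size, mean ± SD, n = 3) in control, 62.1 ± 1.9 in shRRM2 and 177 ± 3 in shRRM2/shp16. Levels, shares and ratios below are likewise mean ± SD, n = 3, while every log2 fold change is given ± SE. RRM2 was thus 2.85-fold higher in shRRM2/shp16 than in shRRM2, so a comparison of those groups also carries a difference in RRM2. CDKN2A was at 6.02 ± 0.11, 6.50 ± 0.46 and 4.28 ± 0.32 CPM, lower in shRRM2/shp16 than in shRRM2 (log2 fold change -0.60 ± 0.13 SE, adjusted p = 7e-05). The authors' deposited test of that comparison gave log2 -0.55 for CDKN2A with q = 0.237, above the threshold. The 10 fibroblast markers summed to 26914 to 27768 CPM in control, 26386 to 27176 in shRRM2 and 22207 to 22797 in shRRM2/shp16, so the libraries held abundant fibroblast RNA. Single markers moved both ways. In shRRM2/shp16 against control, COL3A1 and FAP were higher (log2 1.08 ± 0.02 and 0.70 ± 0.05 SE). VIM and THY1 were lower there (log2 -1.32 ± 0.03 and -1.07 ± 0.03 SE). The 8 epithelial markers summed to 37.8 to 38.6, 27.7 to 30.5 and 14.0 to 15.2 CPM, with 3 of the 8 at no more than 3 counts in every library of each group. Most of that fall lay in CLDN4, at 22.9 ± 0.5, 10.7 ± 0.5 and 2.37 ± 0.61 CPM. The 6 endothelial markers summed to 65.4 to 70.6, 68.0 to 73.1 and 115 to 123.5 CPM, almost all from TEK, with 2 of the 6 at no more than 3 counts in each library. Leukocyte markers summed to at most 3.27 CPM. Of the reads that aligned to 1 place, 17.7% to 18.9% fell on no annotated gene in control, 27.7% to 28.8% in shRRM2 and 23.5% to 24.4% in shRRM2/shp16. This share and the marker sums moved with the groups, and their part in the results below was not tested.

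Cells with the RRM2 hairpin had more RNA for glucose uptake and for hexokinase 2 than control cells, and less for almost all later enzymes of glycolysis. With the p16 hairpin added, most of the enzymes stayed below control, the glucose transporter SLC2A1 was lower than in control, and HIF1A, CA9, VEGFA and PFKFB4 were higher than in both other groups. In shRRM2 against control, 14 of the 40 members were higher, 24 were lower and 2 did not pass the test (a call is an edgeR adjusted p under 0.05). Among all 16561 genes tested, 60.9% were called in that comparison, 29.0% higher and 31.8% lower. In shRRM2/shp16 against shRRM2, 15 were higher, 20 lower and 5 not called, beside 61.1% of all genes called, 31.9% higher and 29.1% lower. In shRRM2/shp16 against control, 15 were higher, 22 lower and 3 not called, beside 62.4% of all genes, 30.0% higher and 32.4% lower. Under upper-quartile scaling the split of all genes changed to 37.7% higher and 23.7% lower in shRRM2 against control, and to 36.3% and 27.2% in shRRM2/shp16 against control. With library totals alone, it was 37.1% higher and 25.2% lower in shRRM2/shp16 against shRRM2, and 38.1% and 25.8% in shRRM2/shp16 against control. Most calls were small, with 3 members at 2-fold or more in each comparison, beside 10.1%, 11.8% and 12.6% of all genes. The CPM of the groups did not overlap for 37, 34 and 36 members, beside 63.6%, 64.7% and 66.2% of all genes. Small differences are easier to call in genes with many counts, as most members are. The shares of all genes given here and below were not matched to the members by level. The median log2 fold changes of the members were -0.20, -0.07 and -0.13, and those of all genes 0.00, 0.01 and 0.01. The 3 comparisons share libraries pairwise, so their values are given side by side and not as independent results.

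**Figure D1:**
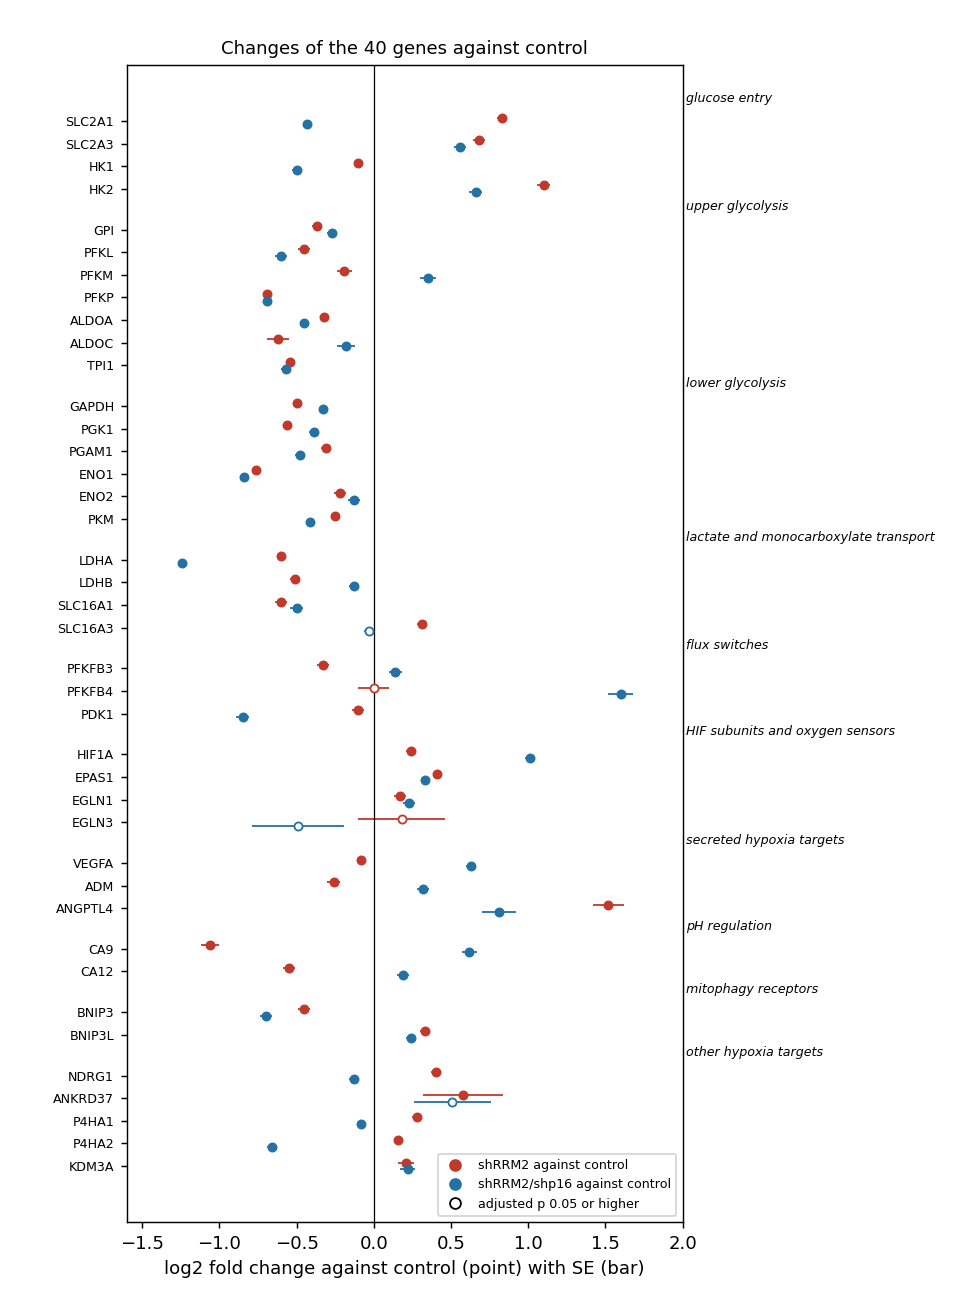
Log2 fold change against control (horizontal axis; point, with the SE as a bar) of each of the 40 genes, ordered by role, in shRRM2 (red) and shRRM2/shp16 (blue), with open points where the adjusted p was 0.05 or higher. Enzymes of upper and lower glycolysis lie left of 0 in both colours except PFKM in shRRM2/shp16, while CA9, CA12, ADM, PFKFB3 and VEGFA change sides between the colours.

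Glucose enters fibroblasts through facilitative transporters, of which SLC2A1 (GLUT1; ENSG00000117394, chr1:42925375-42959176 on GRCh38, minus strand) is the widely expressed one. Its level was 311, 305 and 307 CPM in control, 539, 564 and 540.4 in shRRM2, and 233, 232 and 219.9 in shRRM2/shp16. SLC2A1 was highest in every shRRM2 library and lowest in every shRRM2/shp16 library, with no overlap among the groups. It was 1.78-fold higher in shRRM2 than in control (log2 0.83 ± 0.03 SE, adjusted p = 2.1e-27) and 2.4-fold lower in shRRM2/shp16 than in shRRM2 (log2 -1.26 ± 0.03, adjusted p = 4.4e-34). SLC2A3 (GLUT3), a transporter of higher affinity, rose as well, from 59.6 ± 2.3 CPM in control to 95.3 ± 5.1 in shRRM2 (log2 0.68 ± 0.04, adjusted p = 2.3e-17). It stayed above control in shRRM2/shp16 at 87.9 ± 3.3 CPM. The drop of SLC2A3 from shRRM2 to shRRM2/shp16 was small, with overlapping groups (log2 -0.12 ± 0.04, adjusted p = 0.0164), and the call was lost in 5 of 17 alternative analyses.

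Hexokinases trap glucose in the cell by phosphorylating it. HK2, the inducible form that binds mitochondria, was at 74.8, 70.0 and 72.4 CPM in control, 154, 161 and 152 in shRRM2, and 114, 112 and 117 in shRRM2/shp16. The groups were ordered shRRM2, shRRM2/shp16, control without overlap, and HK2 was 2.15-fold higher in shRRM2 than in control (log2 1.10 ± 0.04, adjusted p = 1.9e-27). HK1, the constitutive form, did not share that rise: it was at 193 ± 4, 179.5 ± 4.9 and 136 ± 6 CPM. It fell from shRRM2 to shRRM2/shp16 (log2 -0.40 ± 0.03, adjusted p = 1.2e-13). The lower HK1 value in shRRM2 than in control (log2 -0.10 ± 0.03, adjusted p = 0.00659) went to 0.00 with an adjusted p of 0.988 under upper-quartile scaling. Per length, HK2 was at 0.389 ± 0.012 of the HK1 level in control, 0.900 ± 0.024 in shRRM2 and 0.872 ± 0.038 in shRRM2/shp16.

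Promoter sequence is shown for 4 glycolytic members of different steps, because they hold the core letters of the HIF element and moved in different directions. RefSeq promoters on GRCh38.p14 (300 bases, 250 of them before the start) were available for 35 of the 40 members. They were searched for ACGTG, and separately for GCGTG, on both strands. The reverse complements CACGT, of the first form, and also CACGC, of the second form, therefore count, and the palindrome CACGTG holds a match on each strand, and these overlap. ACGTG was found in 14 of the 35 (40%) and in 18.5% of all 35116 promoters, GCGTG in 37.1% and 32.2%, and either in 65.7% and 43.2%. For the members the first entry of the gene was used, and for all promoters every entry of full length. The promoters were not matched for expression or base composition, so these shares are not read as enrichment. Many of these genes are known as HIF targets, and a match is a description of letters and not a binding site. Capitals mark the matches, and each line runs 5′ to 3′ on the strand of the gene.
HK2, chr2:74834062-74834091, plus strand, 65 to 36 bases before the start: cagccaatggGCGTGcgCACGTcactgatc
PGK1, chrX:78104028-78104087, plus strand, 220 to 161 bases before the start: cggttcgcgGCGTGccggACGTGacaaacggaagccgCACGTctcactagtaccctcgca
ENO1, chr1:8878837-8878866, minus strand, 180 to 151 bases before the start: gtcacccccctttcCACGCtactgcagccg
ENO1, chr1:8878742-8878771, minus strand, 85 to 56 bases before the start: cggagctgaggggGCGTGccccggaggcgg
LDHA, chr11:18394348-18394387, plus strand, 215 to 176 bases before the start: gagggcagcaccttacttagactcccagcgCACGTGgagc
LDHA, chr11:18394471-18394500, plus strand, 92 to 63 bases before the start: actcaCACGTGggttcccgCACGTccgccg
HK2 also holds an ACGTG match outside the stretch shown. HK2, with matches of both forms, rose in shRRM2, while PGK1, ENO1 and LDHA, which also hold matches, fell. SLC2A1, which also rose in shRRM2, holds neither form in its RefSeq window, and SLC2A3 was not matched.

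The enzymes from hexokinase to pyruvate kinase fell together in shRRM2. Of these 15 enzymes, 14 were lower and 1 (HK2) was higher than in control, or 12 and 1 under upper-quartile scaling. Among all genes, 31.8% were lower and 29.0% higher, or 23.7% and 37.7% under upper-quartile scaling. Of 11 common reference genes, 10 were also lower in shRRM2, with a median log2 fold change of -0.27. The median of the 15 enzymes was -0.37, beside 0.00 for all genes. Their summed level went from 17284 ± 485 CPM in control to 12678 ± 223 in shRRM2 and 12731 ± 157 in shRRM2/shp16. In shRRM2/shp16 against control, 13 of the 15 were lower and 2 (HK2 and PFKM) higher, beside 32.4% lower and 30.0% higher among all genes. From shRRM2 to shRRM2/shp16, 6 were higher, 7 lower and 2 not called, with a median of -0.03. Of all genes, 31.9% were higher and 29.1% lower there. The 40 members together took 2.26% to 2.32% of the gene counts in control libraries, 1.87% to 1.90% in shRRM2 and 1.89% to 1.91% in shRRM2/shp16.

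GAPDH, which makes the first energy-rich intermediate of lower glycolysis and is often used to scale expression data, was the most abundant member. It was at 6106, 5782 and 6029 CPM in control, 4214, 4330.0 and 4142 in shRRM2, and 4798, 4713 and 4740.0 in shRRM2/shp16. The ranges did not overlap, and GAPDH was lower in shRRM2 than in control (log2 -0.50 ± 0.02, adjusted p = 2e-22) and in part higher again in shRRM2/shp16 (log2 0.17 ± 0.02 against shRRM2, adjusted p = 3.5e-08). Under upper-quartile scaling the first of these was -0.39. ENO1, the main enolase, was at 2566, 2424 and 2446 CPM in control, 1434, 1483 and 1462 in shRRM2, and 1408, 1376 and 1363 in shRRM2/shp16. It had the lowest log2 fold change of the 15 enzymes in shRRM2 against control (-0.76 ± 0.02, adjusted p = 3.2e-28), and its levels in the groups with the RRM2 hairpin lay close together. The difference between those groups (log2 -0.08 ± 0.02, adjusted p = 0.00597) lost its call in 2 alternatives. ENO2, the enolase first known from neurons, fell less in shRRM2 (log2 -0.22 ± 0.04, adjusted p = 4.3e-06), so that per length it was at 0.0644 ± 0.0011 of ENO1 in control, 0.0938 ± 0.0044 in shRRM2 and 0.106 ± 0.005 in shRRM2/shp16. The ENO2 values in shRRM2/shp16 (log2 0.09 ± 0.04 against shRRM2, -0.13 ± 0.04 against control) were called but lost the call in 7 and 3 alternatives.

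**Figure D2:**
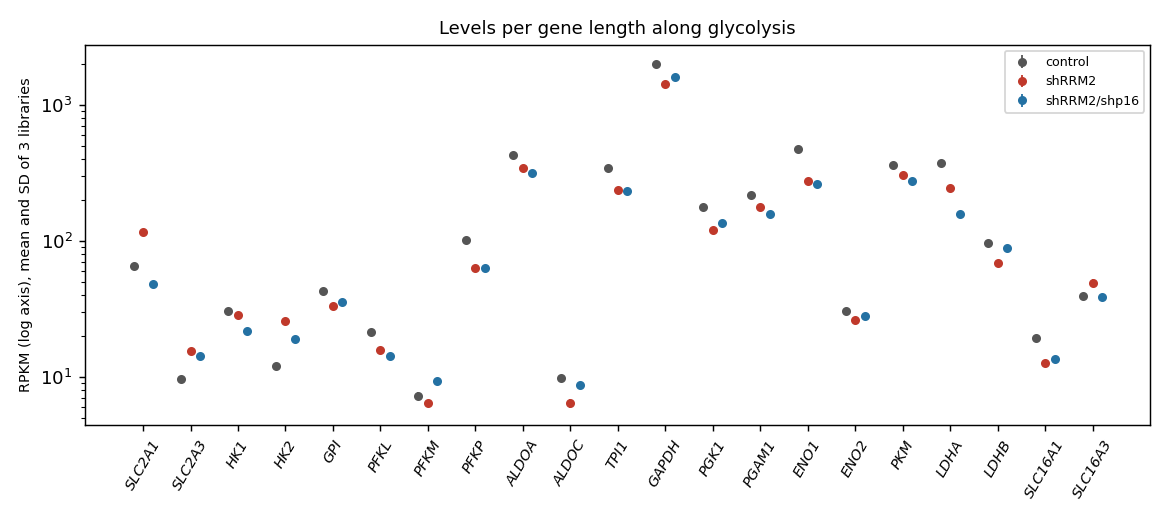
Mean RPKM (CPM per kilobase of exon, log axis; bars give the SD of 3 libraries and are often smaller than the points) of glucose transporters, glycolytic enzymes, lactate dehydrogenases and monocarboxylate transporters in control (grey), shRRM2 (red) and shRRM2/shp16 (blue). Grey points stand above both others from GPI to LDHB except at PFKM, and SLC2A1, SLC2A3 and HK2 have red points above grey.

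Per length, GAPDH was also the highest of these genes in control (2004 ± 57 RPKM), followed by ENO1 (469.8 ± 14.5) and ALDOA (427 ± 12). LDHA (371 ± 2) and PKM (361 ± 11) came next and did not differ beyond their SDs. PFKM (7.27 ± 0.50), SLC2A3 (9.68 ± 0.37) and ALDOC (9.75 ± 0.50) were at the low end, and the last 2 of these did not differ beyond their SDs. This order depends on the annotated exon lengths.

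Phosphofructokinase, the first committed step of glycolysis, is built from 3 kinds of subunit. PFKP, the platelet form, made up 77.9% ± 0.5 of the summed PFK RPKM in control and fell from 489 ± 13 CPM to 303.5 ± 9.0 in shRRM2 and 304 ± 7 in shRRM2/shp16. PFKP was lower than control in both (log2 -0.69 ± 0.03 each, adjusted p = 5.6e-24 and 2e-24) and not called between them (log2 0.00, adjusted p = 1). PFKL, the liver form, fell in all comparisons, from 191 ± 9 to 140.0 ± 6.3 and 127 ± 4 CPM. PFKM, the muscle form, was highest in shRRM2/shp16: it was at 57.3, 50.4 and 51.8 CPM in control, 47.2, 47.5 and 46.0 in shRRM2, and 68.2, 70.5 and 65.7 in shRRM2/shp16. All shRRM2/shp16 libraries lay above all others (log2 0.54 ± 0.05 against shRRM2, adjusted p = 4.9e-13; 0.35 ± 0.05 against control, adjusted p = 1.2e-08). The share of PFKM in the summed PFK RPKM went from 5.60% ± 0.20 to 7.56% ± 0.26 and 10.8% ± 0.4. These shares depend on the annotated exon lengths, 4836 bases for PFKP, 8926 for PFKL and 7318 for PFKM, which may differ from the transcripts present. PFKM exons overlap SENP1 on the other strand. With the strand setting unknown, reads in shared positions may be tallied as ambiguous and left out, so the PFKM level is uncertain.

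Among the other enzymes of upper glycolysis, GPI, which makes fructose phosphate, went from 459 ± 12 to 354 ± 2 and 379.5 ± 12.4 CPM. The aldolase ALDOA went from 1671 ± 46 to 1338 ± 35 and 1224 ± 24 CPM. The brain aldolase ALDOC was at 28.6 ± 1.5, 18.7 ± 1.4 and 25.4 ± 1.6 CPM, with the largest drop of these in shRRM2 (log2 -0.62 ± 0.07, adjusted p = 2.4e-10) and a rise from there in shRRM2/shp16 (log2 0.44 ± 0.07, adjusted p = 7.5e-07). Its difference between shRRM2/shp16 and control (log2 -0.18 ± 0.06, adjusted p = 0.0153, overlapping groups) was not called in 6 of 17 alternatives. TPI1, the triose phosphate isomerase, fell from 923 ± 46 to 637 ± 11 CPM in shRRM2 and was at 624 ± 14 in shRRM2/shp16 (log2 -0.03 ± 0.03 between these, adjusted p = 0.393).

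In lower glycolysis, the kinase PGK1 had the same order as GAPDH, with 967 ± 25 CPM in control, 656 ± 12 in shRRM2 and 740.4 ± 18.3 in shRRM2/shp16. The mutase PGAM1 fell in each comparison, from 559 ± 8 to 450.4 ± 0.8 and 401 ± 2 CPM. PKM, the pyruvate kinase of most tissues, fell likewise from 3097 ± 95 to 2599 ± 54 and 2336 ± 17 CPM. GAPDH, PGK1, PGAM1, ENO1, ALDOA, TPI1, PKM, LDHA and BNIP3 have processed pseudogenes, and SLC2A3 has the close copy SLC2A14. Alignments that were not unique, 40.4% to 44.9% of all tallied entries, were not counted, so the levels of these genes are uncertain.

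Lactate dehydrogenase A (LDHA; ENSG00000134333, chr11:18394388-18408425 on GRCh38, plus strand), the form that favours lactate production, fell step by step across the groups. It was at 2293, 2311 and 2315 CPM in control, 1508, 1502 and 1567 in shRRM2, and 956, 972 and 995 in shRRM2/shp16. The ranges were far apart: LDHA was 1.51-fold lower in shRRM2 than in control (log2 -0.60 ± 0.02, adjusted p = 1e-24) and 1.57-fold lower again in shRRM2/shp16 (log2 -0.65 ± 0.02, adjusted p = 5e-26). At 2.37-fold below control in shRRM2/shp16, it was the lowest log2 fold change of the members there (-1.24 ± 0.02, adjusted p = 1.1e-36). LDHB, the form that favours pyruvate, fell from 289 ± 6 to 203 ± 2 CPM in shRRM2 and rose to 264 ± 5 in shRRM2/shp16 (log2 0.38 ± 0.03, adjusted p = 6.7e-15). Per length, LDHA was thus 3.84 ± 0.10 times the LDHB level in control, 3.61 ± 0.06 in shRRM2 and 1.77 ± 0.05 in shRRM2/shp16. The LDHB difference between shRRM2/shp16 and control (log2 -0.13 ± 0.03, adjusted p = 0.00018) was not called in 2 alternatives.

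The monocarboxylate transporters moved in opposite directions in shRRM2. SLC16A1 (MCT1), which carries lactate either way, fell from 102 ± 1 to 67.2 ± 1.4 CPM (log2 -0.60 ± 0.04, adjusted p = 4.6e-17) and was at 72.0 ± 2.1 in shRRM2/shp16. SLC16A3 (MCT4), the lactate exporter of glycolytic cells and a HIF target, rose from 353 ± 17 to 439 ± 31 CPM (log2 0.31 ± 0.03, adjusted p = 1.9e-10) and was back at 346 ± 5 in shRRM2/shp16, not called against control (log2 -0.03 ± 0.03, adjusted p = 0.443). The rise of SLC16A1 from shRRM2 to shRRM2/shp16 (log2 0.10 ± 0.04, adjusted p = 0.0349) lost its call in 9 of 17 alternatives. SLC16A3 exons overlap CSNK1D on the other strand.

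**Figure D3:**
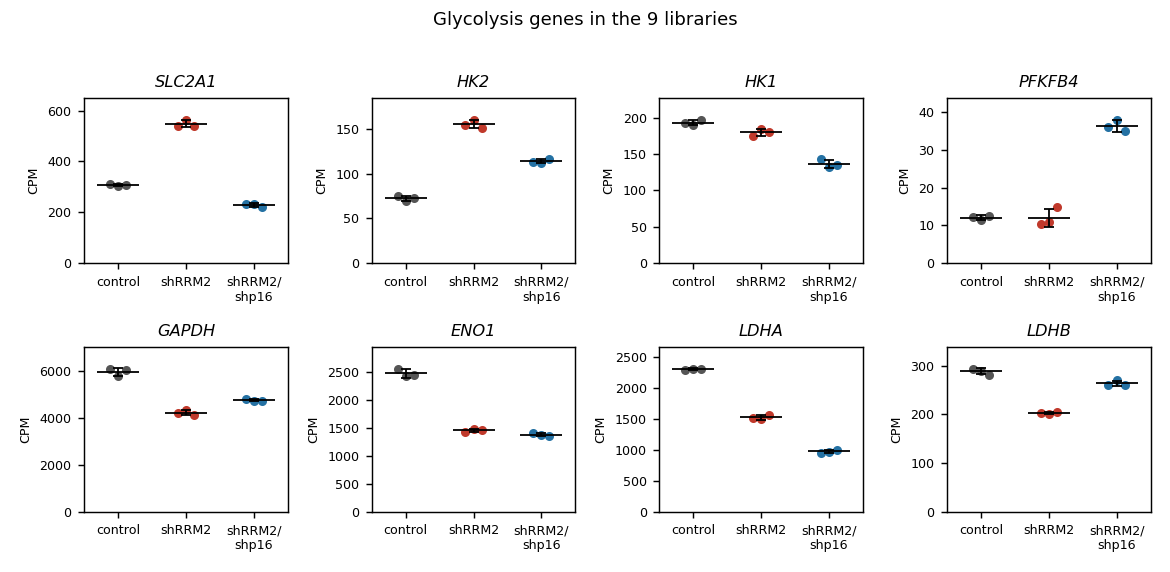
CPM (vertical axes, from 0) of 8 glycolysis genes in each of the 3 libraries per group (points), with the mean and SD (black). SLC2A1 and HK2 peak in shRRM2, PFKFB4 lies at 34.9 to 38.0 CPM in shRRM2/shp16 against at most 14.8 elsewhere, and LDHA descends from control to shRRM2 to shRRM2/shp16.

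The bifunctional enzymes PFKFB3 and PFKFB4 set the level of fructose 2,6-bisphosphate, the strongest activator of phosphofructokinase. PDK1 is a kinase that inhibits pyruvate dehydrogenase in mitochondria. PFKFB4 was at 12.1, 11.3 and 12.6 CPM in control, 10.3, 10.7 and 14.8 in shRRM2, and 36.0, 38.0 and 34.9 in shRRM2/shp16. It did not differ detectably between control and shRRM2 (log2 0.00 ± 0.10, adjusted p = 0.996), where the groups overlapped, and it was 3.03-fold higher in shRRM2/shp16 than in either (log2 1.60 ± 0.08 each, adjusted p = 3.8e-21 and 9.4e-22). PFKFB4 shares exon positions with UCN2 on its own strand. Reads in such positions may be tallied as ambiguous and left out, so the PFKFB4 level is uncertain. The same limit holds for SLC2A1, GPI, PFKP, ALDOA, PGK1, LDHB, SLC16A3 and HIF1A, whose exons overlap other annotated genes on their own strand. PFKFB3 fell from 105 ± 2 to 83.3 ± 4.1 CPM in shRRM2 (log2 -0.33 ± 0.04, adjusted p = 1.3e-09) and rose to 115 ± 3 in shRRM2/shp16. PDK1 was at 111 ± 3 and 104 ± 3 CPM in control and shRRM2 and dropped to 58.3, 64.0 and 62.4 in the shRRM2/shp16 libraries, all below the other 6 (log2 -0.75 ± 0.04 against shRRM2, adjusted p = 6.6e-20). The lower PDK1 value in shRRM2 than in control (log2 -0.10 ± 0.04, adjusted p = 0.0246) was 0.00 under upper-quartile scaling, and its call changed in 9 of 17 alternatives. PFKFB4 and PDK1, both known HIF targets, thus moved in opposite directions from shRRM2 to shRRM2/shp16.

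HIF1A (ENSG00000100644, chr14:61695513-61748259 on GRCh38, plus strand), the oxygen-regulated subunit of HIF-1, rose in each comparison, the only one of the 40 members called higher in all 3. It was at 478, 481 and 483 CPM in control, 567, 554 and 577 in shRRM2, and 969, 977 and 952 in shRRM2/shp16. The 3 ranges were separate, with a small step to shRRM2 (log2 0.24 ± 0.03, adjusted p = 1.3e-10) and a larger one to shRRM2/shp16 (log2 0.77 ± 0.03, adjusted p = 3.3e-28), 2.01-fold above control. EPAS1 (HIF-2 alpha), the subunit more restricted by tissue, rose from 689 ± 8 to 916 ± 9 CPM in shRRM2 (log2 0.41 ± 0.02, adjusted p = 1.8e-18) and was at 867 ± 16 in shRRM2/shp16. Per length, EPAS1 was at 1.01 ± 0.01 times the HIF1A level in control, 1.14 ± 0.01 in shRRM2 and 0.633 ± 0.020 in shRRM2/shp16. The small EPAS1 difference between the groups with the RRM2 hairpin (log2 -0.08 ± 0.02, adjusted p = 0.00521) lost its call in 3 alternatives. HIF1A exons overlap the antisense transcript HIF1A-AS1.

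The oxygen sensors changed little. EGLN1 (PHD2), the main prolyl hydroxylase for HIF1A, was at 61.5 ± 2.0, 68.8 ± 0.7 and 72.0 ± 2.3 CPM, higher than control in shRRM2 (log2 0.17 ± 0.04, adjusted p = 0.0011) and in shRRM2/shp16 (log2 0.23 ± 0.04, adjusted p = 8.3e-06). EGLN3 (PHD3), a HIF-induced family member, was near the lower limit of measurement at 1.18 ± 0.26, 1.30 ± 0.32 and 0.815 ± 0.233 CPM. Its value in shRRM2/shp16 against shRRM2 (log2 -0.67 ± 0.30, adjusted p = 0.0492) lost the call in 9 of 17 alternatives.

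Sequence is shown for 4 members of the hypoxia response for the same reason as above: CA9, ADM and PFKFB4 rose from shRRM2 to shRRM2/shp16, and BNIP3 fell. Capitals again mark the same core letters on either strand, and each line runs along the strand of the gene on GRCh38.p14.
CA9, chr9:35673898-35673927, plus strand, 30 to 1 bases before the start: tcgtttccaatgCACGTacagcccgtacac
ADM, chr11:10304958-10304987, plus strand, 115 to 86 bases before the start: gagagcaggagcgcGCGTGgctgaggaaag
PFKFB4, chr3:48556954-48556983, minus strand, 180 to 151 bases before the start: ggtgagttgggcatGCGTGgtcggaggccg
BNIP3, chr10:131982015-131982078, minus strand, 155 to 92 bases before the start: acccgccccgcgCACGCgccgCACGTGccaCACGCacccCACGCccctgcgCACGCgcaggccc
BNIP3 holds 2 overlapping matches of ACGTG and 4 of GCGTG, the most among the members shown here, and CA9, ADM and PFKFB4 hold 1 each.

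The carbonic anhydrases, which export acid by hydrating carbon dioxide at the cell surface, were lower than control in shRRM2 and higher than control in shRRM2/shp16. CA9 (ENSG00000107159, chr9:35673856-35681159 on GRCh38, plus strand), one of the most used markers of hypoxic tissue, was at 44.2, 41.3 and 39.7 CPM in control, 18.3, 20.0 and 22.0 in shRRM2, and 64.1, 62.7 and 67.0 in shRRM2/shp16. No ranges overlapped. CA9 was 2.08-fold lower in shRRM2 than in control (log2 -1.06 ± 0.06, adjusted p = 7.3e-19), 3.21-fold higher in shRRM2/shp16 than in shRRM2 (log2 1.68 ± 0.06, adjusted p = 2.9e-27) and 1.54-fold above control (log2 0.62 ± 0.05, adjusted p = 1.4e-14). CA12 followed the same order with smaller steps, at 69.3 ± 0.7, 47.5 ± 1.1 and 78.8 ± 0.9 CPM (log2 -0.55 ± 0.04 in shRRM2 against control, adjusted p = 1.8e-14). Per length, CA9 was 2.64 ± 0.15, 1.85 ± 0.19 and 3.59 ± 0.08 times the CA12 level. CA9 exons overlap ARHGEF39 on the other strand.

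The secreted members split. VEGFA, the main growth factor for blood vessels, was at 135, 139 and 141 CPM in control, 132, 129 and 129.6 in shRRM2, and 213, 208.5 and 219.5 in shRRM2/shp16. The shRRM2/shp16 libraries stood above the other 6 (log2 0.71 ± 0.03 against shRRM2, adjusted p = 8.6e-23; 0.63 ± 0.03 against control, adjusted p = 2.6e-21). The VEGFA difference between shRRM2 and control (log2 -0.08 ± 0.03, adjusted p = 0.0345) was 0.02 under upper-quartile scaling and its call changed in 11 of 17 alternatives. ADM, the vasodilator peptide adrenomedullin, went from 121 ± 4 to 100.3 ± 3.7 CPM in shRRM2 (log2 -0.26 ± 0.04, adjusted p = 7.4e-08) and to 150.0 ± 4.0 in shRRM2/shp16 (log2 0.58 ± 0.04, adjusted p = 6.7e-18). ANGPTL4, an inhibitor of lipoprotein lipase, ran against both. It was at 6.87, 5.87 and 4.88 CPM in control, 17.9, 16.3 and 17.3 in shRRM2, and 9.09, 10.9 and 11.6 in shRRM2/shp16, without overlap. ANGPTL4 had the largest rise of the members in shRRM2, 2.87-fold (log2 1.52 ± 0.10, adjusted p = 1.1e-16), and was lower in shRRM2/shp16 (log2 -0.71 ± 0.09, adjusted p = 1.4e-08) though still above control (log2 0.81 ± 0.11, adjusted p = 2.4e-08). ANGPTL4 exons overlap the antisense RNA RAB11B-AS1.

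**Figure D4:**
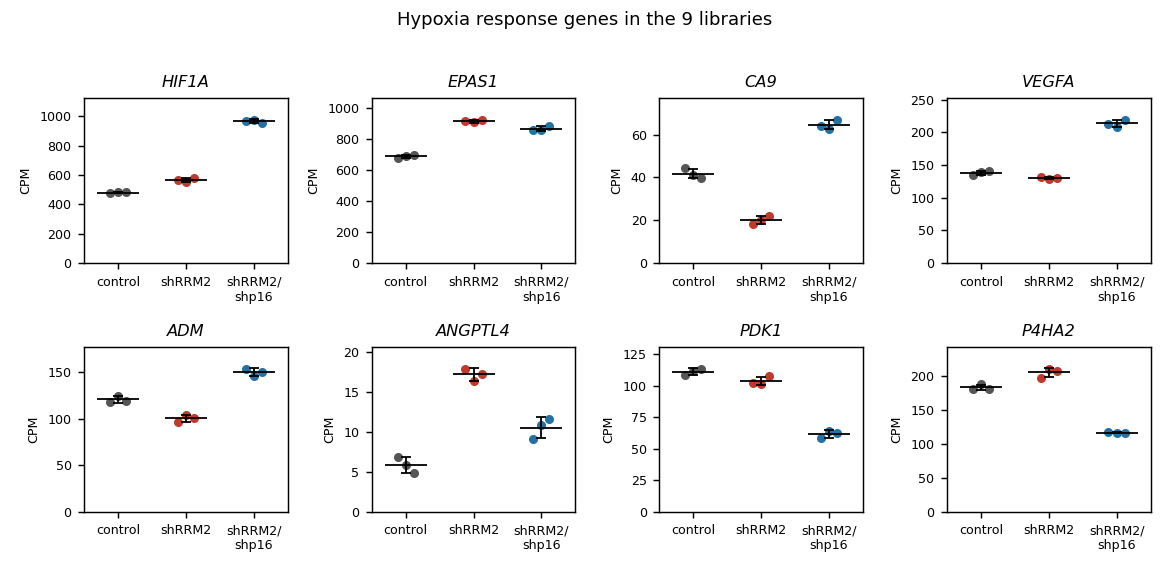
CPM (vertical axes, from 0) of 8 hypoxia response genes in each of the 3 libraries per group (points), with the mean and SD (black). HIF1A climbs from 481 to 566 and 966 CPM on average, CA9, VEGFA and ADM are lowest in shRRM2 and highest in shRRM2/shp16, ANGPTL4 peaks in shRRM2, and PDK1 and P4HA2 are lowest in shRRM2/shp16.

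The mitophagy receptors BNIP3 and BNIP3L, which tag mitochondria for removal, moved apart. BNIP3 was at 144, 146 and 137 CPM in control, 109, 105 and 100.4 in shRRM2, and 89.4, 88.4 and 84.3 in shRRM2/shp16, falling at each step without overlap (log2 -0.45 ± 0.04, adjusted p = 9.7e-14, and -0.26 ± 0.04, adjusted p = 3.1e-07). BNIP3L (NIX) was at 139 ± 4, 175 ± 4 and 163 ± 3 CPM, higher than control in both groups (log2 0.33 ± 0.03 and 0.24 ± 0.03, adjusted p = 1.4e-11 and 5.6e-08). Per length, BNIP3 went from 0.829 ± 0.028 of the BNIP3L level to 0.484 ± 0.017 and 0.433 ± 0.019. The lower BNIP3L value in shRRM2/shp16 than in shRRM2 (log2 -0.10 ± 0.03, adjusted p = 0.00939) was not called in 4 alternatives.

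The other hypoxia targets among the members rose in shRRM2, 5 of 5 called, beside 29.0% of all genes called higher. From shRRM2 to shRRM2/shp16, 3 of them were lower, beside 29.1% of all genes. The rise was not general, since of 39 hypoxia-inducible genes outside the members 15 were higher and 13 lower in shRRM2 against control. P4HA2, a collagen prolyl hydroxylase subunit, was at 181, 188 and 181 CPM in control, 197, 211 and 207 in shRRM2, and 117, 116 and 115 in shRRM2/shp16, where all libraries lay below the rest (log2 -0.82 ± 0.03 against shRRM2, adjusted p = 1.1e-24; -0.66 ± 0.03 against control, adjusted p = 2.4e-21). Its partner isoform P4HA1 was at 332 ± 9, 403 ± 6 and 314 ± 8 CPM, higher in shRRM2 than in control (log2 0.28 ± 0.03, adjusted p = 2.2e-11). The P4HA1 difference between shRRM2/shp16 and control (log2 -0.08 ± 0.03, adjusted p = 0.0153) turned to 0.02 when libraries were scaled by their totals and lost its call in 6 alternatives. NDRG1, a stress-induced gene, had the same order at 278 ± 2, 368 ± 7 and 254 ± 3 CPM (log2 0.40 ± 0.03 in shRRM2 against control, adjusted p = 2e-16; -0.53 ± 0.03 in shRRM2/shp16 against shRRM2, adjusted p = 1.1e-20). KDM3A, a histone H3K9 demethylase, was at 38.3 ± 1.7 CPM in control and 44.3 ± 2.0 and 44.5 ± 0.1 in the other groups (log2 0.21 ± 0.05 and 0.22 ± 0.05 against control, adjusted p = 0.00054 and 0.00024). ANKRD37, a small ankyrin repeat gene, stayed below 2.1 CPM in all libraries, and its call in shRRM2 against control (log2 0.58 ± 0.26, adjusted p = 0.0463, overlapping groups) was lost in 7 of 17 alternatives.

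Sorted by their calls in the 3 comparisons, 6 members (ADM, CA12, CA9, PFKFB3, PFKM and VEGFA) were lower in shRRM2 than in control and higher in shRRM2/shp16 than in both. 4 members (NDRG1, P4HA1, P4HA2 and SLC2A1) had the opposite order. 9 members fell in each comparison (ALDOA, BNIP3, ENO1, HK1, LDHA, PDK1, PFKL, PGAM1 and PKM). 7 fell in shRRM2 and lay between shRRM2 and control in shRRM2/shp16 (ALDOC, ENO2, GAPDH, GPI, LDHB, PGK1 and SLC16A1), and 5 rose in shRRM2 and lay between in shRRM2/shp16 (ANGPTL4, BNIP3L, EPAS1, HK2 and SLC2A3). The share of all genes with each of these orders was not computed. With 60.9%, 61.1% and 62.4% of all genes called in the 3 comparisons, the sets describe the members and are not read as particular to them. These sets depend on small differences for some members. The 3 calls of a member held in all 17 alternatives for 4 of the 6 (not PFKM and VEGFA), 2 of the 4 (not NDRG1 and P4HA1), 6 of the 9 (not ENO1, HK1 and PDK1), 3 of the 7 (not ALDOC, ENO2, LDHB and SLC16A1) and 2 of the 5 (not BNIP3L, EPAS1 and SLC2A3). Of the other 9, HIF1A was higher in each comparison and the rest were not called in at least 1 of them. Known HIF targets stood in each of these 5 sets, for example CA9, SLC2A1, LDHA, PGK1 and HK2.

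**Figure D5:**
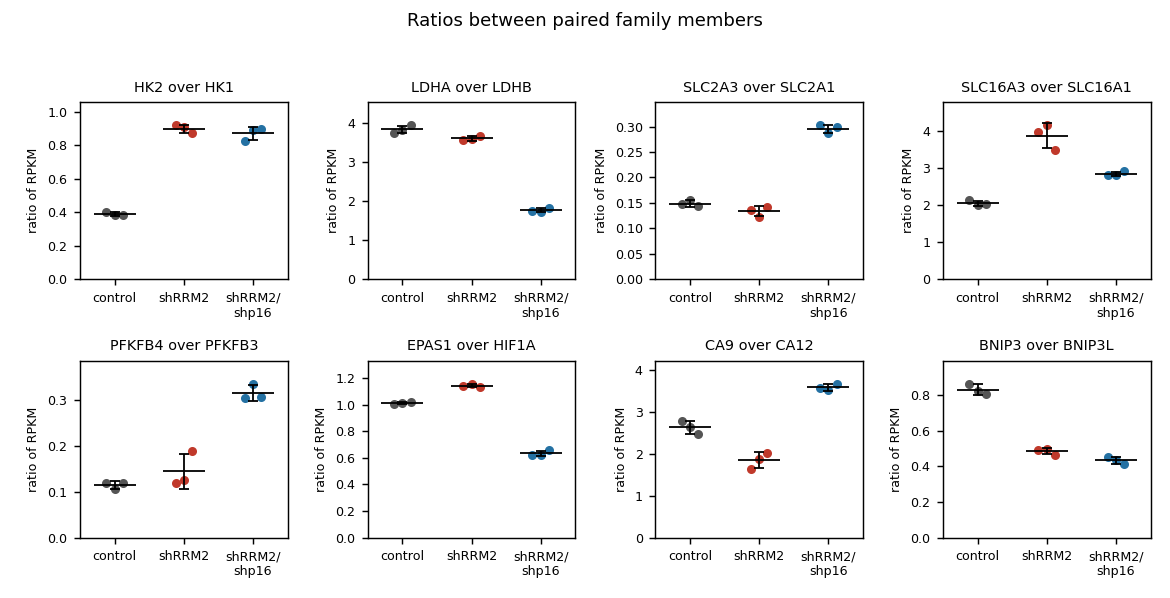
Ratio of the RPKM of paired family members (vertical axes, from 0) in each library (points) with the mean and SD (black) per group. HK2 over HK1 rises from 0.389 to 0.900 with the RRM2 hairpin and is 0.872 with both hairpins, while LDHA over LDHB (3.84, 3.61 and 1.77) and EPAS1 over HIF1A (1.01, 1.14 and 0.633) are lowest in shRRM2/shp16.

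The ratios between family members were compared for 12 pairs in 3 comparisons, and in 32 of the 36 the groups did not overlap. Among all single genes, 63.6%, 64.7% and 66.2% did not overlap in the 3 comparisons. The share for ratios of other gene pairs was not computed, so the count is not read as particular to these pairs. An exact two-sided permutation test of 3 libraries against 3 cannot give a p below 0.1, which these 32 reached (0.11 after Benjamini-Hochberg adjustment over the 36), so no ratio could pass the threshold. HK2 over HK1 overlapped between shRRM2 and shRRM2/shp16 (exact permutation p = 0.4). SLC2A3 over SLC2A1 was 0.149 ± 0.006 in control, 0.134 ± 0.010 in shRRM2 and 0.296 ± 0.008 in shRRM2/shp16. SLC16A3 over SLC16A1 was 2.05 ± 0.07, 3.87 ± 0.34 and 2.84 ± 0.06, highest in shRRM2. P4HA2 over P4HA1 was 0.201 ± 0.003, 0.185 ± 0.007 and 0.135 ± 0.004. PFKFB4 over PFKFB3 was 0.115 ± 0.008, 0.145 ± 0.038 and 0.316 ± 0.017, with overlap between control and shRRM2 (exact permutation p = 0.2).

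The authors' deposited table gives its own test of shRRM2/shp16 against shRRM2. In it, 16 of the 40 members had a q-value under 0.05, 7 higher and 9 lower, and all 16 were called with the same sign from the counts. Among the 16561 genes tested here, 28.5% had such a q-value in the authors' deposited table, 14.9% higher and 13.6% lower. The authors' deposited table lists log2 fold changes of 1.79 for CA9, 1.59 for PFKFB4, 0.85 for VEGFA, 0.82 for HIF1A, -1.24 for SLC2A1 and -0.62 for LDHA, each with q = 0.00044. From the counts, 15 members were called higher and 20 lower in this comparison, so many of those calls had a q-value of 0.05 or more in the authors' deposited table. Among them were ANGPTL4 (-0.46, q = 0.731), PFKM (0.59, q = 0.0754), PGK1 (0.30, q = 0.112) and GAPDH (0.19, q = 0.240). PFKFB3 (0.56, q = 0.242), ALDOC (0.60, q = 0.503) and SLC16A3 (-0.20, q = 0.556) were others.

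Genes were called in both directions in the rest of these pathways, as among all genes. Of 41 other genes of glycolysis and pyruvate metabolism, 31 were tested, with 13 higher and 10 lower in shRRM2 against control (17 and 5 under upper-quartile scaling), 10 and 12 in shRRM2/shp16 against shRRM2, and 14 and 15 in shRRM2/shp16 against control (15 and 11 under upper-quartile scaling). In shRRM2 against control these are 41.9% higher and 32.3% lower, beside 29.0% and 31.8% of all genes, and the medians in the 3 comparisons were 0.14, -0.09 and -0.09, beside 0.00, 0.01 and 0.01. PDK4, a pyruvate dehydrogenase kinase induced by fasting, was at 0.746 ± 0.204 CPM in control, 1.35 ± 0.08 in shRRM2 and 19.8 ± 0.6 in shRRM2/shp16, 14.6-fold above shRRM2 (log2 3.87 ± 0.13, adjusted p = 1.2e-27), against the drop of its relative PDK1. PDK3 fell in shRRM2 (log2 -0.83 ± 0.14, adjusted p = 1.3e-06). SLC16A7 (MCT2) rose from 41.0 ± 2.7 to 68.6 ± 6.4 CPM in shRRM2. PC, the pyruvate carboxylase, fell from 22.8 ± 0.5 to 15.1 ± 1.1 CPM in shRRM2 and was at 31.4 ± 0.9 in shRRM2/shp16. MPC2, a subunit of the mitochondrial pyruvate carrier, dropped to 24.2 ± 1.2 CPM in shRRM2/shp16 from 52.6 ± 0.9 in shRRM2 (log2 -1.12 ± 0.05, adjusted p = 5.7e-22), and SLC2A12 fell there too (log2 -0.95 ± 0.20, adjusted p = 7.1e-05). Against control, shRRM2/shp16 was higher in the muscle enolase ENO3 (17.0 ± 2.0 against 5.40 ± 0.54 CPM) and lower in GPD1L (log2 -0.73 ± 0.10, adjusted p = 5.8e-08).

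Of 15 other parts of the HIF machinery, 2 were higher and 6 lower in shRRM2 against control (4 and 3 under upper-quartile scaling), 6 and 5 in shRRM2/shp16 against shRRM2 (8 and 4 by library totals), and 3 and 5 in shRRM2/shp16 against control (4 and 2 under upper-quartile scaling). The first of these are 13.3% higher and 40% lower, beside the same 29.0% and 31.8% of all genes, and the medians were -0.06, 0.06 and -0.05. CITED2, which competes with HIF for the coactivators CREBBP and EP300, rose from 169 ± 7 to 281 ± 4 CPM in shRRM2 and was back at 167 ± 2 in shRRM2/shp16. CREBBP itself fell in shRRM2 (log2 -0.35 ± 0.03, adjusted p = 2.1e-13), as did the ubiquitin ligase SIAH1 (log2 -0.39 ± 0.07, adjusted p = 5.6e-06). ARNT, the partner subunit, was at 65.1 ± 0.8, 62.5 ± 0.1 and 82.6 ± 1.4 CPM, and VHL, which recognises hydroxylated HIF for destruction, at 28.3 ± 0.5, 29.4 ± 3.0 and 39.3 ± 1.6 CPM, both highest in shRRM2/shp16 together with HIF1A (log2 0.40 ± 0.04 and 0.42 ± 0.06 against shRRM2, adjusted p = 1.6e-11 and 8.9e-08). ARNT2 rose in shRRM2 (log2 0.33 ± 0.06, adjusted p = 5.6e-06) and was lower again in shRRM2/shp16 (log2 -0.52 ± 0.06, adjusted p = 5.9e-10). ELOC and SIAH2 were lower in shRRM2/shp16 than in control (log2 -0.33 ± 0.05 and -0.27 ± 0.06, adjusted p = 3.9e-08 and 0.0003).

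Of 39 other hypoxia-inducible genes, 15 were higher and 13 lower in shRRM2 against control (20 and 9 under upper-quartile scaling), and 17 were higher and 18 lower in each of the other comparisons. These are 38.5% higher and 33.3% lower in the first, beside 29.0% and 31.8% of all genes, and 43.6% and 46.2% in the others, beside 31.9% and 29.1% and then 30.0% and 32.4%. Their medians were 0.00, -0.07 and -0.10. STC1, a secreted calcium and phosphate regulator, was at 245 ± 3 CPM in control, 420 ± 8 in shRRM2 and 1745 ± 14 in shRRM2/shp16, 7.11-fold above control (log2 2.83 ± 0.03, adjusted p = 1.4e-48). TPBG rose in shRRM2 (log2 0.65 ± 0.04, adjusted p = 4.8e-20), while SAP30 fell (log2 -1.34 ± 0.10, adjusted p = 1.3e-15). RAB20 was near the lower limit of measurement in shRRM2, at 0.777 ± 0.399 CPM, and higher in control (2.04 ± 0.04) and in shRRM2/shp16 (2.71 ± 0.17). LOX, the collagen cross-linking enzyme, dropped from 1326 ± 14 CPM in shRRM2 to 672 ± 8 in shRRM2/shp16 (log2 -0.98 ± 0.02, adjusted p = 8.9e-33), as did the mitochondrial kinase AK4, from 102 ± 6 to 52.5 ± 1.4 CPM. Against control, CCNG2 was higher in shRRM2/shp16 (log2 1.12 ± 0.05, adjusted p = 2.2e-22), and HMOX1 and BHLHE40 were lower (log2 -0.86 ± 0.07 and -0.84 ± 0.07, adjusted p = 2.4e-15 and 5.1e-15).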

How the data were processed

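RNA was measured in 9 IMR90 libraries in 3 groups of 3, grouped by the labels. Each library has a table of unnormalised counts by Ensembl gene, deposited by the authors in the layout of HTSeq. Per the submitters' processing notes, TopHat2 2.0.9, Cufflinks 2.0.2, Cuffdiff and GRCh38 were used. Neither the gene annotation nor whether counting used strand is given in the sources used here. The authors' deposited table also compares shRRM2/shp16 with shRRM2 by a log2 fold change and a q-value (per the file headers), used here only beside the fitted values.

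A single edgeR 4.0.16 model (R 4.3.3) took in the 9 libraries, with filterByExpr, TMM factors, the quasi-likelihood F test and 6 residual degrees of freedom. Of 64253 gene identifiers, 16561 were tested, holding 99.8% of the counts. P-values are two-sided and adjusted by Benjamini-Hochberg over all tested genes, and the threshold was 0.05. The 40 member symbols each matched 1 identifier in the authors' table. RPKM values divide CPM by the union of exons in GENCODE release 29 on GRCh38, so levels and ratios between genes depend on these annotated lengths. Replicates were not copies of each other, since their counts differed beyond counting error (chi-square per degree of freedom 1.43 to 2.87 over pairs of the same group). The procedure was also run on simulated counts in which far fewer genes changed than were called here. That run therefore cannot vouch for the scaling or the calls in these data.

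The members and all lists were chosen with earlier results of these data known. The genes named from other lists are the 2 highest and 2 lowest log2 fold changes per list and comparison among called genes whose groups did not overlap. The alternatives were RLE, upper-quartile and total-count scaling, DESeq2 1.42.0, other filters, the 6 compared libraries alone, a replicate block and each library left out. Counts carry no molecular identifiers, so counting error understates the error. The number of value columns left without a sample was 0.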

Additional observations from a re-analysis of the deposited data

How the results depend on the processing

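Under each alternative computed, the counts of members higher and lower stayed within 1.5 times those reported in all 3 comparisons, and 13 higher and 20 lower calls, 13 and 15, and 15 and 17 (comparisons in the order of the report) held under every one. Of 2040 single-gene values, 1908 kept their sign and their side of the threshold, 85 lost the call and 7 gained it. Called values changed sign in 5 cases, and values that were not called, near 0 or at about 1 CPM, in 35. The sign changes of called values in shRRM2 against control came under upper-quartile scaling: VEGFA 0.02, PDK1 0.00 and HK1 0.00. In shRRM2/shp16 against control, P4HA1 was 0.00 under upper-quartile scaling and 0.02 with library totals alone. Upper-quartile scaling moved the median of all genes by 0.105 (log2) in shRRM2 against control, and library totals moved it by 0.104 in shRRM2/shp16 against control. The letters of the libraries did not pair them: deviations of same-letter libraries correlated at -0.02 to 0.049. With the letter as a replicate block, 14 members were higher and 24 lower, 15 and 19, and 16 and 22, in the same order. Depth limits EGLN3 and ANKRD37, the members near 1 CPM.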

Other observations

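GAPDH was not alone among genes used to scale expression data. Of 11 other common reference genes, 10 were lower and 1 was higher in shRRM2 than in control (7 lower and 1 higher under upper-quartile scaling), beside 31.8% lower and 29.0% higher among all genes. Their median log2 fold change was -0.27, beside 0.00. RPLP0, a ribosomal protein gene, fell from 632 ± 18 to 406 ± 18 CPM (log2 -0.64 ± 0.03, adjusted p = 2.6e-22, edgeR). HPRT1, of purine salvage, fell from 25.6 ± 1.9 to 14.6 ± 0.5 CPM (log2 -0.80 ± 0.08, adjusted p = 2.1e-12). B2M, the light chain of MHC class I, was the higher one, from 22.09 ± 1.58 to 26.45 ± 0.99 CPM (log2 0.27 ± 0.07, adjusted p = 0.00088). B2M had 2 identifiers, of which the identifier with more counts was kept. Its level was far below that of ACTB, and whether further B2M reads went uncounted was not tested. ACTB fell at each step, from 11099 ± 48 CPM in control to 9176 ± 109 in shRRM2 and 6417 ± 72 in shRRM2/shp16. From shRRM2 to shRRM2/shp16, 6 of the 11 were higher, among them GUSB (log2 0.69 ± 0.07, adjusted p = 1.6e-12), and 3 were lower, beside 31.9% and 29.1% of all genes. Fold changes of the members set against GAPDH or ACTB in place of whole libraries would therefore differ from those given here.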
